A study of Mus musculus with 13 samples.

Results

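Pip, Crisp3, Wfdc12 and 2310057J18Rik are 4 of the 23364 genes measured in the mouse submandibular gland, a salivary gland under the lower jaw. They were chosen by their FPKM in the adult samples, as very abundant secreted proteins that belong to neither the kallikrein, the secretoglobin nor the mucin family, so their adult abundance is how they were picked and is described here with no test. All 4 passed the filter of at least 1 FPKM (fragments per kilobase of gene, scaled to the reads of the library) in at least 1 sample. RNA of C57BL/6 glands was sequenced in 13 samples, covering embryonic days E14.5 (n = 3), E16.5 (n = 2) and E18.5 (n = 2), postnatal day P5 (n = 2), and the ages of 4 weeks (4wk, n = 2) and 12 weeks (12wk, n = 2). The animals carried no transgene or treatment in the labels. Glands of 3 animals were pooled for every E14.5 sample and of 2 animals for every later embryonic sample, the 4wk and 12wk animals were male, and sex was not determined in embryos or P5 mice. Whether samples of a time point came from separate litters was not stated, so p-values measure only the spread between these samples.

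Salivary glands secrete proteins from acini, the end pieces that make the fluid, and from ducts, which in rodents include granular convoluted tubules that differentiate up to puberty and store hormones and proteases. Pip is prolactin-inducible protein, a small glycoprotein of saliva, tears and other secretions that binds CD4 and fibronectin and is known to be regulated by androgen and prolactin. Crisp3 is a cysteine-rich secretory protein of the CAP superfamily, found in salivary gland and male reproductive tract. Wfdc12 carries a whey acidic protein (WAP) domain, the fold of secreted protease inhibitors with antibacterial members such as Slpi. 2310057J18Rik is listed by RefSeq with the synonym Leg1, a secreted protein.

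The 4 genes lie on 4 chromosomes of the mm9 genome in the GENCODE annotation. Pip is at chr6:41797548-41802061 on the plus strand, Crisp3 at chr17:40358726-40456126 on the minus strand, Wfdc12 at chr2:164014967-164016344 on the minus strand and 2310057J18Rik at chr10:28692094-28706109 on the minus strand. Crisp1, another CAP gene, is annotated at chr17:40430707-40456156 on the minus strand, and overlaps the span of Crisp3. Of 1368 windows of 50 bases, the read length, in Crisp3 transcripts, 33 (2.41%) also occur in Crisp1 transcripts, so a small share of reads cannot be told between them. The other 3 genes share no such window with another gene.

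Promoters are shown because the 4 genes, all among the top 10 adult genes, reach their adult means of 16108 to 55183 FPKM by different courses. Each run covers the 250 bases before the RefSeq transcription start (GRCm38.p6, read 5′ to 3′ on the strand of the gene), except that the 50 bases nearest the start are not printed for Wfdc12, and capitals mark the TATA box (TATAAA or its reverse complement TTTATA) and the core element of the glucocorticoid receptor (TGTTCT or AGAACA). The windows are chr6:41847299-41847548 (plus) for Pip, chr17:40242289-40242538 (minus) for Crisp3, chr2:164190609-164190808 (minus) for Wfdc12 and chr10:28986307-28986556 (minus) for 2310057J18Rik.
Pip: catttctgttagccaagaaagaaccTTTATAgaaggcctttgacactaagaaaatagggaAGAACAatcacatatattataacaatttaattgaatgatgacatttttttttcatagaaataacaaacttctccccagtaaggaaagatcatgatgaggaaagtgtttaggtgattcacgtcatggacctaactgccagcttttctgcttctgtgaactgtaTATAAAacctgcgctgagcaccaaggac
Crisp3: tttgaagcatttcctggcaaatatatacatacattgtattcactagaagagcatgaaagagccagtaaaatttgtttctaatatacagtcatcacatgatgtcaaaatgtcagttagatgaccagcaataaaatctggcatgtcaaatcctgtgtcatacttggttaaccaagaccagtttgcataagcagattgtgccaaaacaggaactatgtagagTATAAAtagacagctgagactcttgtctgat
Wfdc12: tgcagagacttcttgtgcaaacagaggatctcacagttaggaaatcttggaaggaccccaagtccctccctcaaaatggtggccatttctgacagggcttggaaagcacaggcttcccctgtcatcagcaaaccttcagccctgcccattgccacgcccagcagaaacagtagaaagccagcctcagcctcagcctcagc
2310057J18Rik: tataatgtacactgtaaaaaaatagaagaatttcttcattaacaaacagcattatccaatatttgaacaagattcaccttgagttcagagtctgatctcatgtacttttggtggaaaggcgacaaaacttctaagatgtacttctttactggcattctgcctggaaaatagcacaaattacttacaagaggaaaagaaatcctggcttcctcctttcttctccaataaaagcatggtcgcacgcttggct
TATAAA stood 28 to 23 bases before the start of Pip and 31 to 26 bases before that of Crisp3. The reverse complement TTTATA is also marked in Pip, much further away, 225 to 220 bases before the start. Either form occurs in the same 250 bases of 12.97% of 27025 promoters. The receptor element was found only in the Pip window, 190 to 185 bases before the start, against 16.2% of all promoters. Pip also held the STAT motif TTCNNNGAA at 2 places, 140 to 132 and 42 to 34 bases before the start, against 7.18% of promoters. The E box CAGCTG, searched with CATATG (15.9% of promoters), stood in Crisp3 21 to 16 bases before the start. CCAAT or its reverse complement (34.5% of promoters) stood at 2 places in 2310057J18Rik. Wfdc12 held none of these motifs in the 200 bases printed, which leave out the 50 bases nearest the start. These matches are letters in a window, with no measure of binding.

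Samples held 5807745 to 48222242 reads on genes, derived from the steps of low FPKM values, with the fewest at 4wk (5807745 and 7964502). A feature of the E14.5 libraries bears on low values. A rule set after the data were seen took genes with a 12wk mean of at least 1000 FPKM. Their P5 mean had to be below 0.1% of it. It gave 12 genes other than the 4 described here, namely Amy1, Chia, Smr3a and otherwise only Klk1b genes of the kallikrein family. Amy1, Chia and Smr3a were abundant at 12wk but not at 4wk. Their means were 10.8, 0.124 and 0.284 FPKM at 4wk and 3492, 3437 and 5762 at 12wk. At E14.5 the 12 genes had a median of 0.0327% of their 12wk mean (range 0.0274% to 0.111%). The median was 0.00189% at E16.5 (0 to 0.357%), 0.0188% at E18.5 (0 to 0.142%) and 0.0227% at P5 (0.000621% to 0.0689%). The E14.5 libraries thus held most of these genes, mainly of the Klk1b family, at a like small share. At E16.5, 11 of the 12 were lower, all but Smr3a.

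Markers of the gland were present, with muscle beside them in the earlier embryo. Summed FPKM of 6 acinar markers rose from 47.5 to 85.6 at E14.5 to 80240 to 82055 at 4wk and was 50621 to 62430 at 12wk, most of it Prol1. Summed FPKM of 6 granular and striated duct markers was 12.9 to 13.3 at E14.5, 561 to 596 at P5, 20363 to 20527 at 4wk and 17517 to 18506 at 12wk. Summed FPKM of 4 skeletal muscle markers was 69.3 to 172 at E14.5, 267 to 699 at E16.5, 1.54 to 13.3 at E18.5 and at most 9.60 later, and its part in the embryonic comparisons was not tested. In bulk samples, fewer cells of a type and less RNA per cell cannot be told apart.

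Together the 4 genes took 0.00711% to 0.00829% of all FPKM at E14.5 and 12.4% to 15.4% in the adult samples. By mean FPKM over the 4 adult samples, Pip ranked 3, Crisp3 6, Wfdc12 7 and 2310057J18Rik 10 of all genes, among Scgb1b27, Prol1, Scgb2b27, Car6, Klk1b9 and Scgb2b26. Their courses before adulthood differed, and Pip was already abundant before birth while Crisp3 was not.

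**Figure D1:**
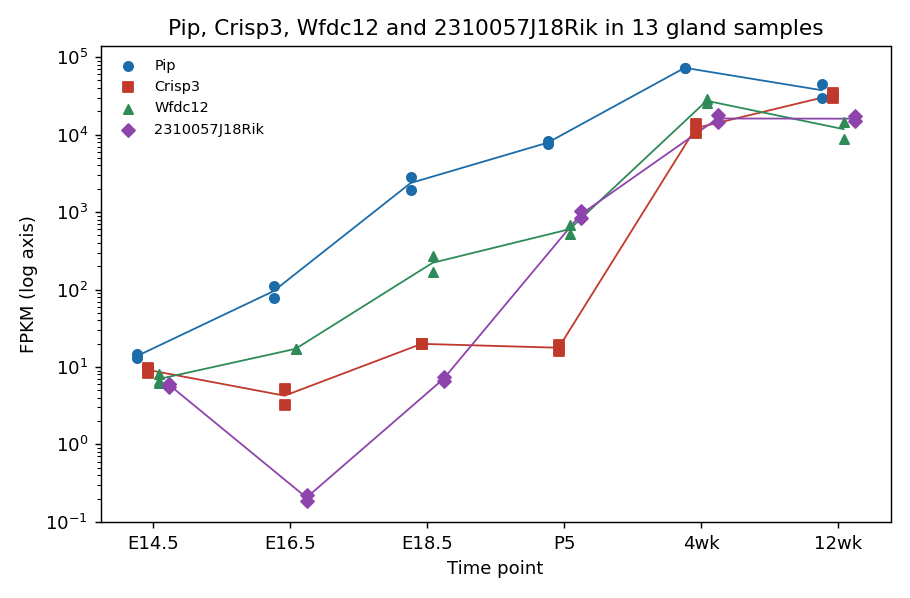
FPKM of the 4 genes on a log axis in each of the 13 samples (points) by time point, with lines through the means of 2 or 3 samples. Pip climbs at each step to P5, 2310057J18Rik is lowest at E16.5, and Crisp3 is at 3.25 to 19.9 FPKM until P5 and at 10407 and 13845 at 4wk.

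In the embryo Pip read 13.1, 13.4 and 14.8 FPKM (E14.5), then 113 and 78.3 (E16.5), then 1946 and 2800 (E18.5). After birth its values were 7522 and 8215 FPKM (P5), then 72414 and 73391 (4wk), then 44906 and 30022 (12wk). No 2 time points overlapped, which was not counted over all genes. Within a sample, its rank among all genes went from 5318 to 5858 in the E14.5 samples to 25 and 17 by E18.5, 8 in both P5 samples and 3 in both 4wk samples.

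Wfdc12 followed a like course at a lower level, with 6.30, 6.58 and 8.05 FPKM (E14.5), then 17.3 and 17.0 (E16.5), then 170 and 272 (E18.5). After birth its values were 515 and 688 FPKM (P5), then 25825 and 28889 (4wk), then 14612 and 8910 (12wk). Time points did not overlap here either, again with no count over all genes. The ratio of Pip to Wfdc12 within a sample was 1.84 to 2.08 at E14.5, 4.61 to 6.52 at E16.5, 10.3 to 14.6 at E18.5 and P5, 2.54 to 2.80 at 4wk and 3.07 to 3.37 at 12wk.

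2310057J18Rik read 5.98, 5.50 and 5.98 FPKM (E14.5), then 0.188 and 0.224 (E16.5), then 6.64 and 7.41 (E18.5). After birth its values were 828 and 1029 FPKM (P5), then 14557 and 17748 (4wk), then 14980 and 17145 (12wk). It was lowest at E16.5, and the 4wk and 12wk samples overlapped. At a length of 1320 bases, chosen because its low values come nearest to whole reads there, the E16.5 values are 9 and 11 reads.

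Crisp3 read 9.57, 8.42 and 9.55 FPKM (E14.5), then 5.27 and 3.25 (E16.5), then 19.8 and 19.9 (E18.5). After birth its values were 16.1 and 19.3 FPKM (P5), then 10407 and 13845 (4wk), then 30057 and 34725 (12wk). It was the last of the 4 to become abundant, with P5 and E18.5 close together and all adult samples far above. The mean at 4wk was 685-fold that at P5, against 45.5-fold for Wfdc12, 17.4-fold for 2310057J18Rik and 9.27-fold for Pip.

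From E14.5 to E16.5, Pip and Wfdc12 rose and 2310057J18Rik fell. The question is whether these genes of the adult gland start at the onset of cytodifferentiation. Of the 14650 genes tested with limma on log2(FPKM + 1), 5.15% were called (4.17% higher and 0.983% lower), with a call at an absolute log2 fold change of at least 1 and a Benjamini-Hochberg adjusted p below 0.1. Pip rose by 2.69 on the log2 scale (standard error (SE) 0.25, limma adjusted p = 6.8e-05) and Wfdc12 by 1.19 (SE 0.24, limma adjusted p = 0.0078). 2310057J18Rik fell by 2.50 (SE 0.13, limma adjusted p = 1.4e-06), and with a pseudocount of 0.1 in place of 1 it fell by 4.28. Crisp3 had a log2 fold change of -0.98, under the size needed (SE 0.18, limma adjusted p = 0.0044).

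The E14.5 levels of all 4 genes were of the size seen in the 12 genes above. As a percentage of the 12wk mean, Crisp3 stood at 0.0283%, 2310057J18Rik at 0.0362%, Pip at 0.0367% and Wfdc12 at 0.0593% at E14.5, against the median of 0.0327%. At E16.5 the percentages were 0.0131% for Crisp3, 0.00128% for 2310057J18Rik, 0.255% for Pip and 0.146% for Wfdc12. At E18.5, Crisp3 (0.0614%) and 2310057J18Rik (0.0437%) were above 11 of the 12 genes and below Smr3a (0.142%), while Pip reached 6.33% and Wfdc12 1.88%. Whether the E14.5 values of the 4 genes are expression in those glands or reads carried over from other libraries was not tested, and the fall of 2310057J18Rik rests on them.

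**Figure D2:**
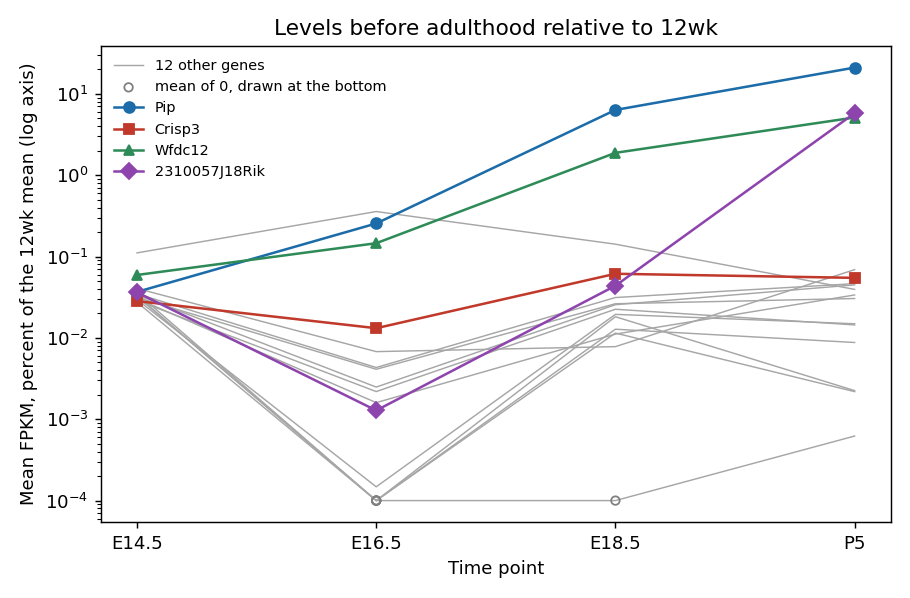
Mean FPKM at 4 time points as a percentage of the 12wk mean, on a log axis. Coloured lines with markers are the 4 genes. Grey lines are the 12 other genes abundant at 12wk with a P5 mean below 0.1% of the 12wk mean (means of 0 drawn at the bottom). At E14.5, 15 of the 16 genes lie between 0.0274% and 0.0593%, and at E16.5 Pip and Wfdc12 are above this range.

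Between E16.5 and E18.5 all 4 genes rose, in a comparison where 2.94% of genes were called (1.09% higher and 1.85% lower). The log2 fold change was 4.62 for Pip (SE 0.27, limma adjusted p = 3.4e-06) and 3.58 for Wfdc12 (SE 0.27, limma adjusted p = 2.9e-05). 2310057J18Rik rose by 2.73 (SE 0.15, limma adjusted p = 1.9e-06), from 0.206 to 7.03 FPKM, or by 4.54 with a pseudocount of 0.1. Crisp3 rose by 2.02 (SE 0.20, limma adjusted p = 0.00016), from 4.26 to 19.9 FPKM. In the same step the median of the 12 genes above went from 0.00189% to 0.0188% of their 12wk mean. Crisp3 (0.0614%) and 2310057J18Rik (0.0437%) were still at a small share at E18.5. Whether these E18.5 values hold reads carried over from other libraries was not tested. Over all genes the calls were 159 higher and 271 lower, and 193 and 170 after median-of-ratios rescaling. They were 148 and 448 without E16.5 replicate 1, and 117 and 172 without E18.5 replicate 2.

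After birth, 3 of the 4 rose from E18.5 to P5, in a comparison where 5.04% of genes were called (2.07% higher and 2.97% lower). These were 303 higher and 435 lower genes, or 347 and 262 after rescaling and 189 and 378 without P5 replicate 1. 2310057J18Rik changed most, by 6.85 on the log2 scale (SE 0.15, limma adjusted p = 5.1e-10), which took its mean from 7.03 to 928 FPKM. Pip rose by 1.75 (SE 0.27, limma adjusted p = 0.0021) and Wfdc12 by 1.46 (SE 0.27, limma adjusted p = 0.0045). Crisp3 did not pass, with a log2 fold change of -0.16 and a 95% interval of -0.59 to 0.26 (limma adjusted p = 0.61).

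From P5 to 4wk, the log2 fold change was 9.33 for Crisp3, 5.52 for Wfdc12, 4.12 for 2310057J18Rik and 3.21 for Pip, given as a description because adult abundance chose the genes. The median over all tested genes was -0.53 in this step, -0.14 from E16.5 to E18.5 and -0.12 from E18.5 to P5. The top 10 genes of a sample took 5.93% to 9.27% of its FPKM up to E16.5, which became 29.2% and 31.1% (P5), then 60.3% and 61.1% (4wk), then 49.9% and 48.1% (12wk). The part of this in the changes was not tested.

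Between 4wk and 12wk the 4 genes went different ways. Crisp3 rose in both 12wk samples, Wfdc12 fell, Pip was lower but under the size needed for a call, and 2310057J18Rik did not differ beyond the spread. Crisp3 rose by 1.43 on the log2 scale (SE 0.20, limma adjusted p = 0.001), and Wfdc12 fell by 1.26 (SE 0.27, limma adjusted p = 0.012), where 5.15% of genes were called (2.68% higher and 2.48% lower). Pip had a log2 fold change of -0.99 (95% interval -1.59 to -0.39, limma adjusted p = 0.038), from 72903 ± 691 (SD, n = 2) to 37464 ± 10525 FPKM (SD, n = 2). 2310057J18Rik had a log2 fold change of -0.0043 (95% interval -0.33 to 0.32), at 16153 ± 2256 and 16063 ± 1530 FPKM (SD, n = 2 each).

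By mean FPKM, Crisp3 and Wfdc12 exchanged places between the ages, while Pip kept the highest mean and 2310057J18Rik the rank of 3. The ratio of Pip to Crisp3 within a sample was 6.96 and 5.30 at 4wk and 1.49 and 0.865 at 12wk, and that of Crisp3 to Wfdc12 was 0.403 and 0.479 at 4wk and 2.06 and 3.90 at 12wk. Neither pair of ratios overlapped between the ages, though with 2 samples against 2 a 2-sided exact permutation test gives no p-value below 0.333. Crisp3 to 2310057J18Rik moved from 0.715 and 0.780 to 2.01 and 2.03. These ratios do not depend on how a sample is scaled.

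**Figure D3:**
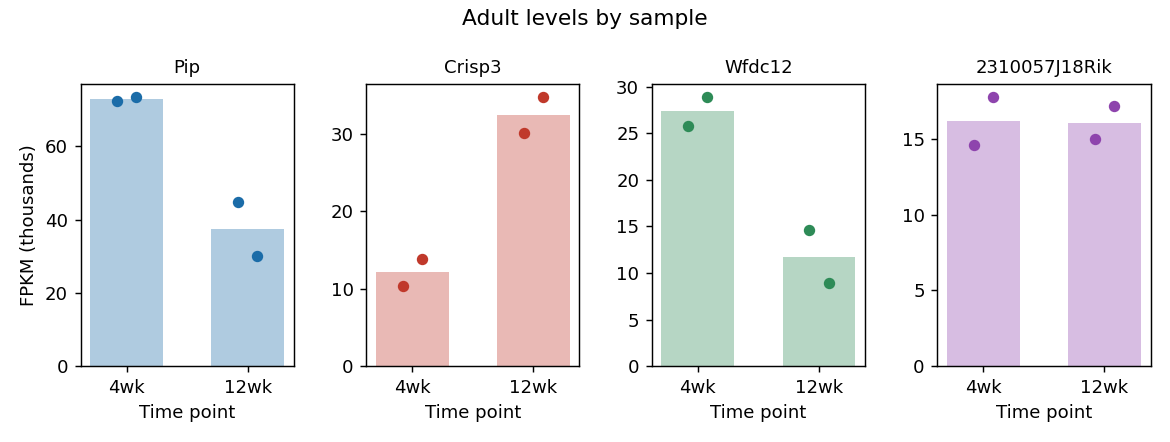
FPKM, divided by 1000, of the 4 genes at 4wk and 12wk, on axes that start at 0 and differ between panels. Points are the 2 samples of each age and bars their mean. Ages did not overlap for Pip, Crisp3 and Wfdc12. With 2 samples against 2, a 2-sided exact permutation test gives no p-value below 0.333. The share of all genes without overlap was not counted.

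The calls rest on few samples. With only the 4 samples of both ages in the fit, neither Crisp3 (limma adjusted p = 0.28) nor Wfdc12 (limma adjusted p = 0.33) passed, and without 12wk replicate 2 Wfdc12 had a log2 fold change of -0.90 (limma adjusted p = 0.11). Cell type markers moved between the ages too. The duct marker Egf had a mean of 3602 FPKM at 4wk and 10666 at 12wk, while Klk1 went from 15347 to 3525, the acinar sum was lower and the immune sum (4 of 5 markers in the files) went from 5.63 to 12.5 up to 68.4 to 77.1. The means of Amy1, Chia and Smr3a rose between the ages too, as given above. The part of these markers and genes in the changes of the 4 genes was not tested.

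Relatives of Crisp3 in the CAP superfamily were a list of 14 genes, of which 7 were tested. From 4wk to 12wk, 1 was called higher and 1 lower, where 2.68% of all genes were called higher and 2.48% lower, with a median log2 fold change of 0.065 beside 0 over all genes. Crisp1 rose by 1.55 (SE 0.33, limma adjusted p = 0.013) from 542 and 954 FPKM to 2141 and 2075, and Pi16, a peptidase inhibitor family member, fell by 1.31 (SE 0.36, limma adjusted p = 0.038). Before birth Crisp1 reached 64.9 and 75.4 FPKM at E18.5, and it fell by 2.09 to P5 (SE 0.33, limma adjusted p = 0.0024), to 13.9 and 17.8 FPKM. From P5 to 4wk Crisp1 rose by 5.43 (SE 0.33, limma adjusted p = 7.1e-07).

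**Figure D4:**
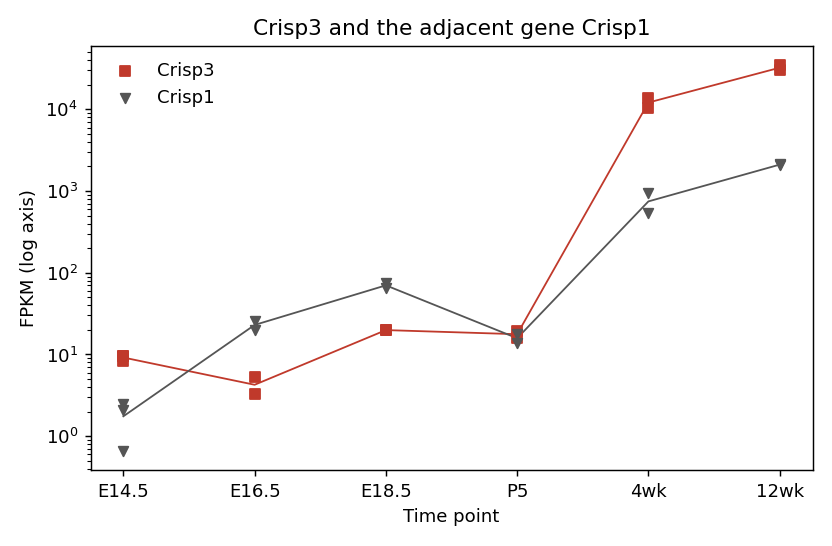
FPKM of Crisp3 and Crisp1 on a log axis in each of the 13 samples (points) by time point, with lines through the means. Crisp1 is above Crisp3 at E16.5 and E18.5 and below it in all 4 adult samples.

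Relatives of Wfdc12 were a list of 24 WAP-domain genes, of which 10 were tested. From 4wk to 12wk Slpi, a leukocyte protease inhibitor, was the 1 called, higher, from a value listed at 0 in both 4wk samples to 11.5 and 3.77 FPKM at 12wk (limma adjusted p = 0.00046), beside 2.68% of all genes called higher. The more abundant members, Wfdc18 (571 and 501 FPKM at 4wk and 12wk) and Wfdc2 (75.3 and 145), were not called in this comparison. They had risen early, from 57.5 to 708 FPKM for Wfdc18 (log2 fold change 3.93, limma adjusted p = 0.0023) and from 35.5 to 315 for Wfdc2 (3.12, limma adjusted p = 2.9e-07) between E14.5 and E16.5, when 2 of the 10 were called, both higher, beside 4.17% of all genes. The genes beside Wfdc12 on the chromosome were low, with Wfdc5, Wfdc15a and Wfdc15b at means of at most 1.07 FPKM.

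The androgen and prolactin axis, known regulators of Pip, was a list of 14 genes, of which 13 were tested. From 4wk to 12wk 1 was called, Fkbp5, an androgen- and glucocorticoid-responsive chaperone, higher by 1.04 (SE 0.13, limma adjusted p = 0.00074), beside 2.68% of all genes called higher. From P5 to 4wk Fkbp5 was called higher and Srd5a1 lower, where 24.3% of genes were called, 2.19% higher and 22.1% lower (321 and 3235, or 935 and 1278 after rescaling). Fkbp5 rose by 1.49 (limma adjusted p = 1.1e-05). Srd5a1, which makes the active androgen, fell by 1.12 (limma adjusted p = 0.00058). After median-of-ratios rescaling the log2 fold changes were 2.14 for Fkbp5 and -0.57 for Srd5a1, the last under the size needed for a call.

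Of 4 binding partners known for PIP or CRISP3, 3 were tested. Azgp1, which encodes a partner of PIP in body fluids, had means of 1.06 FPKM (E16.5), 5.57 (E18.5), 8.85 (P5) and 19.99 (4wk), and then fell by 4.204 (SE 0.21, limma adjusted p = 1.1e-06), to 0.140 and 0.134 FPKM at 12wk. Fn1 was 56.7 FPKM at P5 and 5.43 at 4wk, a fall by 3.20 (limma adjusted p = 4.1e-05), with a log2 fold change of -2.61 after median-of-ratios rescaling. Cd4, below 3 FPKM in all samples, was called lower in the same step (log2 fold change -1.26, limma adjusted p = 0.0056). Azgp1 was called higher in it (1.09, limma adjusted p = 0.0012). Of all genes, 2.19% were called higher and 22.1% lower from P5 to 4wk.

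The genes most like each member were ranked by Pearson r of log2(FPKM + 1) over the 13 samples, given as a description, since all points share the same libraries and time course. For Crisp3 these were Klk1b3 (r = 0.997), Klk1b27, Klk1b24, Klk1b1 and Stx7. For 2310057J18Rik they were Scgb1b27 (r = 0.995), Scgb2b27, Dgkg, Cwh43 and Cpeb3. For Pip they were Smpdl3a (r = 0.994), Igsf5, Tc2n, Pon3 and Gjb1, and for Wfdc12 Srpr (r = 0.993), Asns, Klk1, Atp6v0d2 and Fbxl4. Among themselves, Pip and Wfdc12 were most alike (r = 0.974) and Pip and Crisp3 least (r = 0.792).

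In the adult samples the neighbouring genes were far lower than the 4 genes, though before then Ptprk, Crisp1 and Gm17495 were above the gene they neighbour at some time points. Sval2, which begins 0.927 kb after Pip, was listed at 0 in the embryo and had means of 0.980 FPKM at P5, 2.52 at 4wk and 3.81 at 12wk. Pgk2, 13.2 kb from Crisp3, rose by 1.99 from P5 to 4wk (limma adjusted p = 1.2e-05), to 3.42 FPKM. Gm17495, 201 kb from Crisp3, had means of 9.67 FPKM (E16.5), 31.1 (P5) and 43.2 (4wk), and fell by 1.86 to 11.1 FPKM at 12wk (SE 0.51, limma adjusted p = 0.036). Kcns1, 18.1 kb from Wfdc12, was at 5.03 and 4.26 FPKM in the adult. Of the nearest genes to 2310057J18Rik, Ptprk was between 12.6 and 17.0 FPKM in the means of all time points and Themis at most 0.217 FPKM.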

How the data were processed

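RNA was prepared from dissected glands with the Direct-zol kit and TruSeq RNA libraries. The authors mapped reads of 50 bases to mm9 with TopHat2 2.0.13 and Bowtie2 2.2.6, counted them on UCSC genes with featureCounts, dropping reads with several places or genes, and deposited FPKM. The authors name DESeq2 1.10.1 for normalization. Size factors of the deposited FPKM differ between ages, so values were taken as scaled to each library's total. Counts were not used here. log2(FPKM + 1) of 14650 genes was fitted with limma 3.58.1 (R 4.3.3), 6 time points as groups and a variance trend, and Benjamini-Hochberg adjustment. The code was tested on simulated data. Other tables used Python 3.11.15. The genes named are the 4 genes, the top 10 adult genes, the 5 most alike each and some neighbours. From 4 lists, those called from 4wk to 12wk are named, and some but not all of the 3 highest in the adult. Srd5a1, Klk1, Egf and the 12 other genes abundant at 12wk were named after their values were seen. The 4 genes and the lists were chosen with earlier results of these data known. Alternatives were another pseudocount, filters, rescaling, a stricter p, no trend, a replicate block, fewer samples and each sample left out. Some genes of the lists are not reported here.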

Additional observations from a re-analysis of the deposited data

How the results depend on the processing

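Of 348 recomputed log2 fold changes of the 4 genes, 341 kept their side of the threshold. Direction changed for 2310057J18Rik from 4wk to 12wk, which was not called in any setting, at 0.0119 after rescaling, 0.139 without 4wk replicate 2 and 0.093 without 12wk replicate 1. From 4wk to 12wk, with only the samples of both ages, Crisp3 stayed at 1.43 and Wfdc12 at -1.26 without a call. Leaving out 1 sample at a time, Pip ranged from -1.28 to -0.70 (called without 12wk replicate 1), Wfdc12 from -1.62 to -0.90 and Crisp3 from 1.22 to 1.63. From E14.5 to E16.5, Crisp3 was called at -1.13 with a pseudocount of 0.1, and ranged from -1.26 to -0.70 when samples were left out, called without E14.5 replicate 2 or E16.5 replicate 1.

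A pseudocount of 0.1 gave 1658 calls from 4wk to 12wk against 755, 1183 against 755 from E14.5 to E16.5, 1163 against 738 from E18.5 to P5 and 5767 against 3556 from P5 to 4wk. Only the samples of both ages gave 244 calls from 4wk to 12wk, and leaving out 1 sample 617 to 1472, the most without 4wk replicate 2. Median-of-ratios rescaling gave 2213 calls from P5 to 4wk.

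Replicate numbers gave no pairing, as deviations from the group means had a mean correlation of -0.0158 over 30 same-numbered pairs and 0.0118 over 40 others. With the replicate number as a block, the calls from 4wk to 12wk were 741, from E14.5 to E16.5 751, from E16.5 to E18.5 422, from E18.5 to P5 731 and from P5 to 4wk 3559, and no call of the 4 genes changed.

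Without the 3 E14.5 libraries, an alternative chosen after seeing the data, no call of the 4 genes changed. Rescaling moved the adult mean FPKM of Pip from 55183 to 83401, of Crisp3 from 22258 to 33995, of Wfdc12 from 19559 to 29618 and of 2310057J18Rik from 16108 to 24552. Of the 5 genes most like each, Pip kept 3, Crisp3 4, Wfdc12 1 and 2310057J18Rik 3 after rescaling, and 2, 5, 0 and 3 over the 6 time point means. Time points of 2 samples limit precision, and the low depth at 4wk limits values near 0 there.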
